A study of Mus musculus with 4 samples.

Results

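The C/EBP transcription factors are represented here by 4 genes, Cebpa, Cebpb, Cebpd and Cebpg, out of 19932 genes tested. Their members were taken as every non-control probe whose gene name in the scanner output was one of these 4 symbols. That gave 8 of 41174 probes: 2 for Cebpa, 2 for Cebpb, 1 for Cebpd and 3 for Cebpg. The study compared regulatory T cells (Treg) with T-effector cells among CD4+ cells of mouse lymph node, on 13 two-colour Agilent whole mouse genome arrays. Each array carried Treg RNA in one dye and T-effector RNA in the other. All cells were grown for 4 days on plates coated with anti-CD3 at 1 ug/ml, which stimulates the T cell receptor. All of them also received IL2 at 100 units/ml for 3 days, so no group was without anti-CD3 or IL2. The 4 conditions were IL2 alone (3 arrays), IL2 with TGFb at 4 ng/ml (3 arrays), IL2 with TGFb at 4 ng/ml and IL6 at 25 ng/ml (4 arrays), and IL2 with IL6 at 25 ng/ml (3 arrays). How the Treg and T-effector cells were separated, the mouse strain, and whether arrays came from separate cultures or animals are not given in the sources used here. The p-values therefore measure the spread between arrays, which may be technical.

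C/EBP proteins are basic leucine zipper factors that bind DNA as dimers, with each other or with other zipper proteins, at CCAAT-like sites. C/EBPβ and C/EBPδ, encoded by Cebpb and Cebpd, are known as inflammation-induced factors, and Cebpd is a textbook target of STAT3, the factor that the IL6 receptor activates. C/EBPα, encoded by Cebpa, is best known for driving granulocyte and fat cell differentiation, and C/EBPγ, encoded by Cebpg, has little activating capacity of its own and pairs with other zipper factors such as ATF4. From the Cebpb mRNA both activating and inhibitory proteins are translated, and an array signal does not separate them.

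The promoter of Cebpb is shown because this gene had the largest Treg to T-effector difference of the 4. RefSeq promoters (GRCm38.p6) of 300 bases, from 250 before to 50 after the transcription start, were held for 3 of the 4 genes, Cebpa, Cebpb and Cebpg. The Cebpb window lies at chr2:167688665-167688964 on the plus strand. Capitals mark each match to TGACG on either strand, a motif that is a part of the cyclic AMP response element and not the whole element.

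Cebpb: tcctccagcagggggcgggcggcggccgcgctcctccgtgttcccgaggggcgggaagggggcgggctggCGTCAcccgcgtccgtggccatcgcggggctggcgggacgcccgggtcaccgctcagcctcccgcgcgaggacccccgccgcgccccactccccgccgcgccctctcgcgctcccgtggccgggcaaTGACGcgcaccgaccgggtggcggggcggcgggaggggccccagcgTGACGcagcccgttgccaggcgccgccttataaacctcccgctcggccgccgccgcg

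The window held 3 such matches, which did not overlap each other, and none was found in the Cebpa or Cebpg window. At least 1 TGACG was present in 20.8% of 32851 RefSeq promoters of the same length, and at least 3 in 1.03%. The window was 80.7% G or C, against a median of 52.7% over all promoters. None of the 3 windows held TTCNNNGAA (a STAT site, in 8.3% of promoters), TTGCNNAA (a C/EBP site, in 10.8%) or TGANTCA (an AP-1 site, in 7.8%) on either strand. These matches describe letters in a window and not binding.

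Between 38.9% and 69.8% of probes were well above background in a channel, the call that Agilent's software makes for each spot, and the number of arrays limits the precision. Foxp3, which defines Treg, was higher in the Treg channel on every array, by 1.72 to 2.71 on the log2 scale. Other Treg markers are given as fitted log2 ratios with IL2 alone, IL6, TGFb, and TGFb with IL6, in that order. Ikzf2 had 3.23, 3.12, 0.81 and 0.42, and Ctla4 1.49, 1.36, 0.62 and 0.48. Tnfrsf18 had 0.73, 0.50, 0.33 and 0.20. Itgae had 2.46, 2.77, 3.22 and 2.49, and Il2ra 0.39, 0.46, 1.09 and 0.70. Not all of these ratios were called. All 8 T cell markers on the list used were well above background in at least 13 of the 26 channels. Of 9 granulocyte markers, 1 (Mpo) was well above background in at least 13 channels, and Ltf, Prtn3 and S100a9 in fewer. The other 5 (Camp, Csf3r, Elane, Retnlg and S100a8) were above background in none. Markers of other lymphocytes were present, with 4 of 6 CD8 and NK cell markers and 4 of 8 B cell markers well above background in at least 13 channels, as were 7 of 13 myeloid and dendritic markers. The arrays lay on 5 slides, here A to E. Dye orientation was not balanced in 3 of the 4 conditions. Slide A held array 1 of IL2 alone and array 2 of IL2 with IL6. Its array of IL2 alone was the only one of that condition with Treg RNA in Cy3. Slide and dye cannot be told apart there, and without slide A only arrays with Treg RNA in Cy5 remain for IL2 alone. Slide A stood apart for Cebpb, so the Cebpb values are given with and without it. That choice was made after the data were seen, on the Cebpb values themselves, so results without slide A are descriptive. Slide B held 1 array with TGFb and 2 with TGFb and IL6, and the Cy3 background left on its negative controls was high, with medians from 118 to 123 above the local background against 3.59 to 25.4 on the other slides. Its part in the TGFb differences was not tested apart from leaving it out. In bulk RNA, fewer cells that express a gene and less RNA per cell cannot be told apart.

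Levels below are log2 signals after normalization and differences are log2 differences. A difference was called when its Benjamini-Hochberg adjusted p over all 19932 genes was under 0.05. With 18 comparisons of 4 genes, 11 of 72 results were called. Cebpb had 5 of its 18 called and Cebpd 6 of its 18, while Cebpa and Cebpg had none. Over all genes, between 0% and 11.2% were called in a comparison. The 18 comparisons of a gene share arrays, so its calls are not separate findings.

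Cebpb was the 1 member called between Treg and T-effector cells. Its signal was the higher one in the Treg channel on 13 of 13 arrays, by 5.39-fold with IL2 alone and 3.67-fold with IL2 and IL6, and by less in both conditions with TGFb. TGFb lowered Cebpb in Treg cells, and no difference between conditions was called for it in T-effector cells. The probe tested has 59 bases at chr2:167483001-167483059 (mm7, the build of the array's design, plus strand), and it was well above background and unsaturated in all 26 channels.

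With IL2 alone, the Cebpb signal in Treg cells was 10.78, 11.57 and 12.16 on arrays 1, 2 and 3. In T-effector cells on the same arrays it was 9.30, 8.72 and 9.03. All Treg values lay above all T-effector values, and the array on slide A had the lowest Treg and the highest T-effector value. With IL2 and TGFb, Treg cells had 10.09, 10.32 and 9.80, and T-effector cells 8.89, 9.63 and 9.31. The Treg values again lay above the T-effector values, but all 3 were below every Treg value of IL2 alone. With TGFb and IL6 together, Treg cells had 10.07, 10.52, 9.98 and 10.78 on arrays 1 to 4, and T-effector cells 9.35, 10.23, 9.60 and 10.35. The 2 groups overlapped across arrays here, although Treg was the higher channel on each array. With IL2 and IL6, Treg cells had 11.66, 10.86 and 11.85, and T-effector cells 9.49, 9.89 and 9.55. The groups did not overlap, and slide A again gave the lowest Treg and the highest T-effector value.

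**Figure D1:**
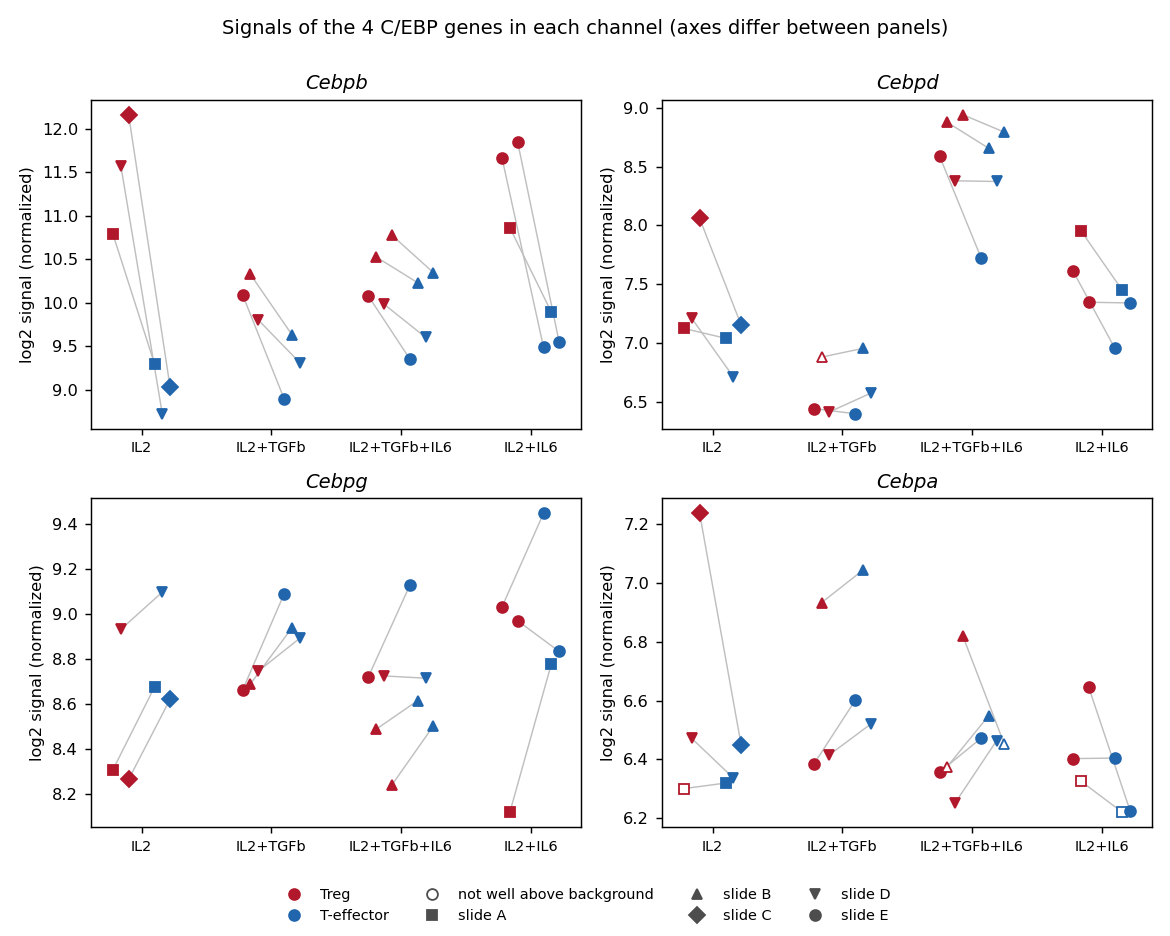
Normalized log2 signal of the tested probe of each gene (y axis, scaled separately per panel) in the 4 conditions (x axis). Each point is 1 channel, lines join the Treg (red) and T-effector (blue) channels of 1 array, symbols give the slide and open symbols were not well above background; Cebpb was higher in Treg on 13 of 13 arrays and Cebpd was highest with TGFb and IL6 together.

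Ordered by mean, Cebpb ran from Treg cells with IL2 alone (11.51 ± 0.69, SD, n = 3) and with IL2 and IL6 (11.46 ± 0.52, n = 3), through Treg cells with TGFb and IL6 (10.34 ± 0.38, n = 4) and with TGFb (10.07 ± 0.26, n = 3), to the 4 T-effector groups. T-effector cells had 9.88 ± 0.48 with TGFb and IL6 (n = 4), 9.64 ± 0.22 with IL6, 9.28 ± 0.37 with TGFb and 9.02 ± 0.29 with IL2 alone (n = 3 each). Of the neighbours in this order, those at 11.46 and 10.34 did not overlap, and every other pair of neighbours did.

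The fitted Treg to T-effector log2 ratio of Cebpb was 2.43 ± 0.285 (SE) with IL2 alone (adjusted p = 0.000651, limma). It was 1.87 ± 0.285 with IL2 and IL6 (adjusted p = 0.00433). With TGFb it was 0.85 ± 0.285 (adjusted p = 0.115), and with TGFb and IL6 0.46 ± 0.24 (adjusted p = 0.323), neither of them called. The TGFb ratio was called with slide as a block (0.81, adjusted p = 0.0177) and with the replicate block (0.94, adjusted p = 0.04). Cebpb was thus the 1 member of 4 called with IL2 alone, where 11.0% of all genes were called, and the 1 of 4 with IL2 and IL6, where 5.82% were. With TGFb, 0 of 4 were called against 5.92% of all genes, and with TGFb and IL6, 0 of 4 against 5.82%. Without slide A the ratio was 3.07 ± 0.17 with IL2 alone, 2.24 ± 0.15 with IL6, 0.77 ± 0.13 with TGFb and 0.46 ± 0.11 with both, and all 4 were called (adjusted p = 8.43e-06, 6.28e-05, 0.00413 and 0.0204). Because slide A was picked for its low Cebpb values in Treg cells, leaving it out narrows the spread by selection. These p-values are therefore not independent support. The Foxp3 log2 ratio on slide A was 2.50 and 2.57, against 1.72 to 2.71 on the other arrays. Why Cebpb was low in the Treg channels of slide A was not tested.

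**Figure D2:**
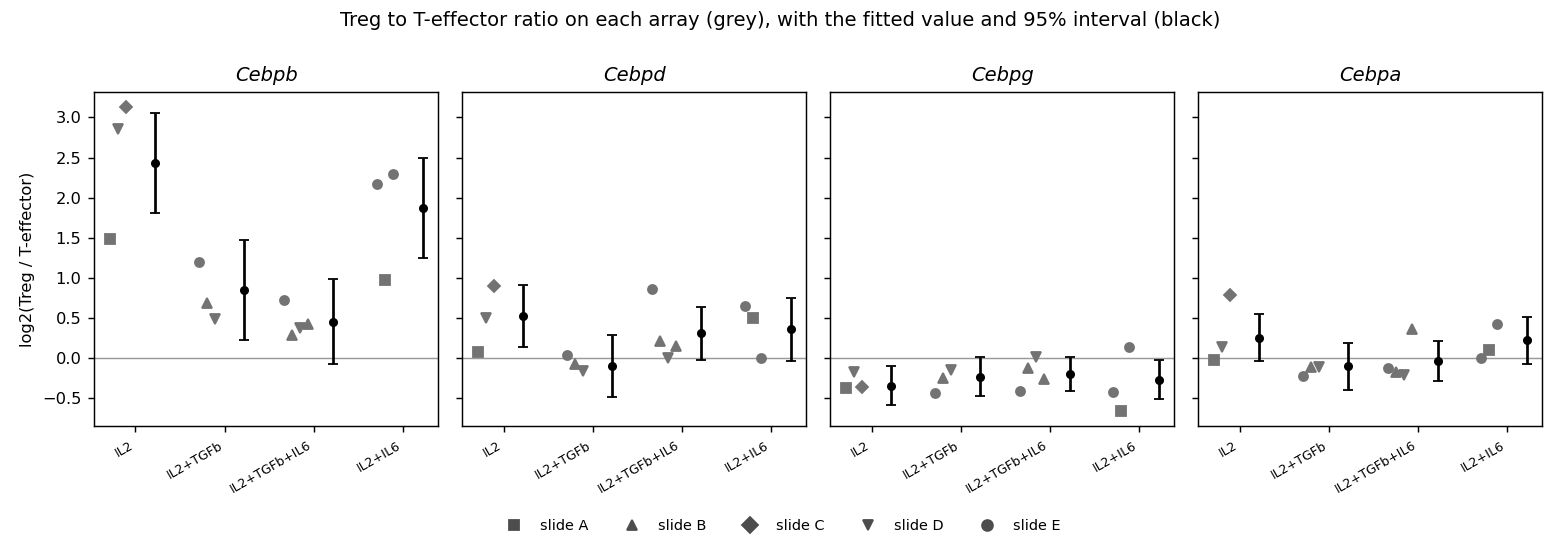
Log2 ratio of Treg over T-effector signal (y axis) for the tested probe of each gene in the 4 conditions (x axis). Grey symbols are single arrays by slide and black points the fitted ratio with its 95% interval; the Cebpb ratio was 2.43 with IL2 alone and 0.46 with TGFb and IL6, and the slide A arrays gave the lowest Cebpb values of both conditions they belong to.

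The difference in ratio between conditions was tested itself. TGFb added to IL2 lowered the Cebpb ratio by 1.58 ± 0.41 (adjusted p = 0.0458), the 1 of 4 members called where 5.85% of all genes were. Within slide D, the one slide that held both conditions, the change was -2.36, from 1 array of each. Values within 1 slide, here and below, compare 1 or 2 arrays per condition without a dye term and have no measured spread. With slide as a block the change was -1.87 ± 0.28 (adjusted p = 0.00158). Leaving out 1 array at a time ended this call in 10 of 13 fits, with values between -2.17 and -1.15, while leaving out slide A gave -2.30 (adjusted p = 0.000487). TGFb added to IL2 and IL6 gave -1.42 ± 0.37 (adjusted p = 0.0585), not called, with 0 of 4 members called against 3.95% of all genes. Slide E alone gave -1.51, and the fit with slide as a block gave -1.69 ± 0.24 (adjusted p = 0.00121), which is called. IL6 added to IL2 changed the Cebpb ratio by -0.55 ± 0.41 (adjusted p = 1), where 0% of genes were called. IL6 added to TGFb changed it by -0.40 ± 0.37 (adjusted p = 1), where 0.291% of genes were called, and none of the 4 members was called in either comparison. These 4 comparisons share groups of arrays with each other and are not independent.

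Within Treg cells, TGFb added to IL2 lowered Cebpb by 1.38 ± 0.35 on the log2 scale (adjusted p = 0.0153). Cebpb and Cebpd were the 2 of 4 members called there, where 7.77% of all genes were. Slide D alone gave -1.77, slide as a block -1.50 ± 0.27 (adjusted p = 0.000957), and leaving out slide A -1.85 ± 0.28. TGFb added to IL2 and IL6 lowered Cebpb in Treg cells by 1.15 ± 0.33 (adjusted p = 0.0267), and again Cebpb and Cebpd were the 2 of 4 called, where 10.0% of genes were. Slide E alone gave -1.68, and slide as a block -1.53 ± 0.25 (adjusted p = 0.000239). In T-effector cells the same additions of TGFb gave 0.20 ± 0.35 (adjusted p = 0.81) and 0.27 ± 0.33 (adjusted p = 0.701), with 95% intervals from -0.53 to 0.93 and from -0.41 to 0.95. None of the 4 members was called in T-effector cells when TGFb was added to IL2, where 4.29% of all genes were.

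IL6 did not raise Cebpb past the threshold in either cell type. Added to IL2, it gave 0.01 ± 0.35 in Treg cells (95% interval -0.72 to 0.74) and 0.57 ± 0.35 in T-effector cells (-0.17 to 1.30). Slide A, the one slide with both conditions, gave 0.08 and 0.59. Added to IL2 and TGFb, it gave 0.24 ± 0.33 in Treg cells (-0.44 to 0.92) and 0.63 ± 0.33 in T-effector cells (-0.05 to 1.31). On each of the slides that held both TGFb conditions, B, D and E, the T-effector change was positive, at 0.66, 0.29 and 0.46. A fit with slide as a block gave 0.53 ± 0.22 for it (adjusted p = 0.128). When IL6 was added to IL2, none of the 4 members was called in Treg cells, against 0.958% of all genes, or in T-effector cells, against 0.803%.

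**Figure D3:**
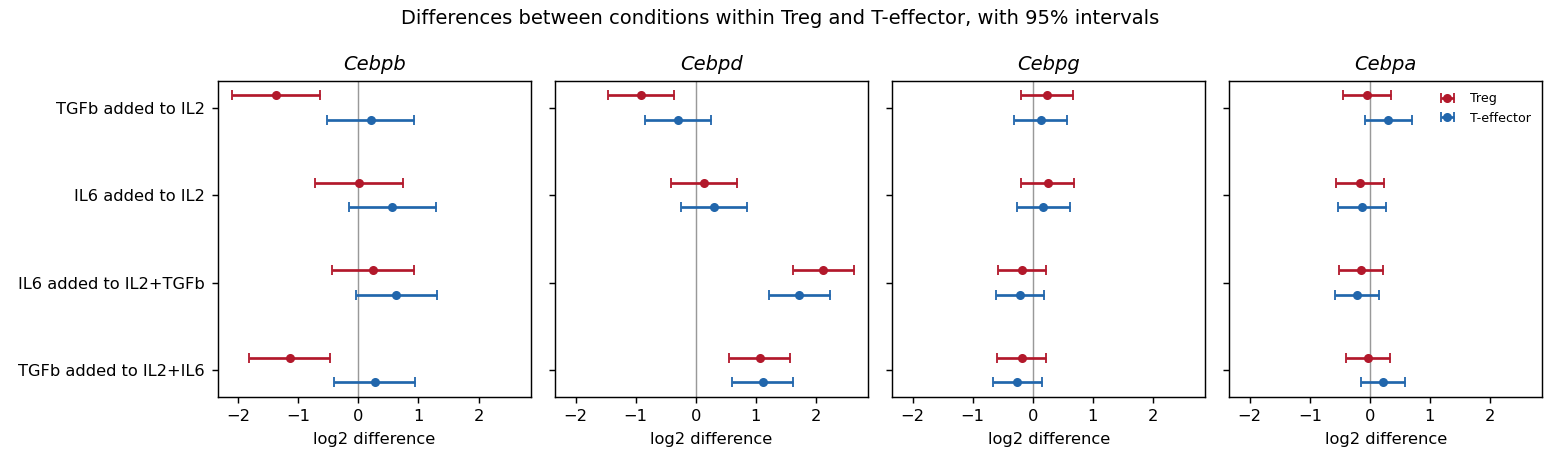
Log2 difference between conditions (x axis) in Treg (red) and T-effector (blue) cells for the 4 additions of a cytokine (y axis), as the fitted value with its 95% interval. The Treg interval of Cebpb lies below 0 for both additions of TGFb, and both Cebpd intervals lie above 0 for both comparisons that end in TGFb with IL6.

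The second Cebpb probe, 60 bases at chr2:167482463-167482522 and so further upstream on the same strand, showed the same direction, with a smaller difference on the normalized scale. It was also higher in Treg on 13 of 13 arrays. Its log2 ratio was 0.67 ± 0.15 with IL2 alone (adjusted p = 0.0173, called) and 0.39 ± 0.15 with IL2 and IL6 (adjusted p = 0.153, not called). It gave 0.34 ± 0.15 with TGFb and 0.26 ± 0.13 with TGFb and IL6. Its Treg signal with IL2 alone was 6.92, 7.36 and 7.71, near the dim end of the scale, where the fixed offset of the background correction compresses differences. The TGFb differences in Treg cells were -0.38 (adjusted p = 0.278) and -0.056 (adjusted p = 0.904) on this probe, so the calls for them rest on the other probe. On Agilent's processed signals, which have no offset, this probe gave the larger ratio on 6 of the 7 arrays with TGFb and on 0 of the 6 without.

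**Figure D4:**
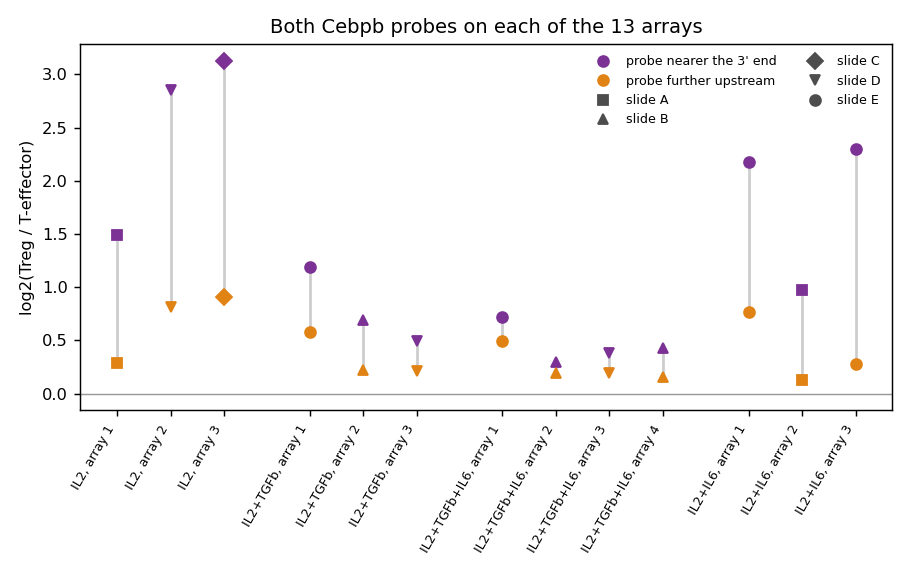
Log2 ratio of Treg over T-effector signal (y axis) of both Cebpb probes on each of the 13 arrays (x axis), with symbols by slide and a line joining the probes of 1 array. Both probes lie above 0 on 13 of 13 arrays, and on this normalized scale the probe nearer the 3′ end gives the larger value on each; on processed signals the other probe is larger on 6 of the 7 arrays with TGFb.

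Cebpb is abundant in myeloid cells, so the myeloid and dendritic markers are given beside it. The summed signal of the 13 markers on this list ran from 1368 to 1717 in Treg cells and from 1340 to 1415 in T-effector cells with IL2 alone. With IL2 and IL6 it ran from 1241 to 2013 and from 1164 to 1333. With TGFb it was 1350 to 1590 in Treg cells and 1367 to 1704 in T-effector cells. With TGFb and IL6 it was 1500 to 1836 and 1500 to 1978. Undetected markers also add to such sums. The 9 granulocyte markers, 5 of them above background in no channel, summed to 601.3 to 644.5 in Treg cells with IL2 alone. Similar sums therefore do not show similar myeloid content. Spi1, the factor that defines the myeloid lineage, was above background in no channel of any array. Tyrobp, an adaptor of myeloid receptors, was lower in Treg than in T-effector cells with IL2 alone, by 0.47 ± 0.11 (adjusted p = 0.0231). It was well above background in 5 of 13 Treg and 9 of 13 T-effector channels. Mpeg1, well above background in 13 of 13 channels of each cell type, was lower in Treg cells with TGFb and IL6, by 0.73 ± 0.11 (adjusted p = 0.0028). Csf1r, the M-CSF receptor of macrophages, was well above background in 8 of 13 Treg and 6 of 13 T-effector channels. Its ratio was 1.06 ± 0.37 with IL2 alone (adjusted p = 0.0846), 1.12 ± 0.37 with IL6 (adjusted p = 0.0998), -0.04 with TGFb and 0.15 with TGFb and IL6, so it was high in the same conditions as that of Cebpb without being called. The part of these markers in the Cebpb result was not tested.

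Markers of CD8, NK and B cells also moved in the comparisons of Cebpb. Of 6 CD8 and NK markers, 2 were lower in Treg cells with IL2 alone and 2 rose in Treg cells when TGFb was added to IL2. Cd8a, a chain of the CD8 coreceptor, had a ratio of -1.27 ± 0.36 with IL2 alone (adjusted p = 0.0455) and rose by 1.81 ± 0.42 in Treg cells with TGFb (adjusted p = 0.00689). Klrd1, the CD94 receptor chain of NK cells, rose by 1.27 ± 0.24 there (adjusted p = 0.00134). The summed signal of the list in Treg cells was 1412 to 3257 with IL2 alone and 3196 to 4409 with TGFb. Of 8 B cell markers, 1 rose and 2 fell in Treg cells when TGFb was added to IL2, among them Cd79b, a chain of the B cell receptor, which fell by 1.72 ± 0.27 (adjusted p = 0.000153). The sum of the B cell list in Treg cells was 4933 to 6146 with IL2 alone and 8953 to 9920 with TGFb. Their part in the Cebpb and Cebpd results was not tested.

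Cebpd followed another pattern: it was highest in both cell types when TGFb and IL6 were given together and lowest with TGFb without IL6. IL6 added to TGFb raised it 4.38-fold in Treg and 3.31-fold in T-effector cells, whereas IL6 added to IL2 did not change it past the threshold. No Treg to T-effector difference in Cebpd was called. Its single probe has 60 bases at chr16:15431723-15431782 (mm7, plus strand) and was well above background in 12 of 13 Treg and 13 of 13 T-effector channels.

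With TGFb and IL6, the Cebpd signal in Treg cells was 8.59, 8.88, 8.38 and 8.94 on arrays 1 to 4. In T-effector cells it was 7.73, 8.65, 8.37 and 8.79. With TGFb and no IL6, Treg cells had 6.44, 6.88 and 6.42, of which the value on array 2 was not well above background, and T-effector cells 6.40, 6.96 and 6.58. In both cell types, every value with TGFb and IL6 lay above every value with TGFb. With IL2 alone, Treg cells had 7.12, 7.21 and 8.06, and T-effector cells 7.04, 6.71 and 7.16. With IL2 and IL6, Treg cells had 7.61, 7.96 and 7.35, and T-effector cells 6.96, 7.45 and 7.34. The values with TGFb and IL6 lay above those with IL2 and IL6 within each cell type, while IL2 alone and IL2 with IL6 overlapped.

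Ordered by mean, Cebpd was highest in Treg cells (8.70 ± 0.26, SD) and T-effector cells (8.39 ± 0.47) with TGFb and IL6, n = 4 each. There followed Treg cells with IL6 (7.64 ± 0.30), Treg cells with IL2 alone (7.46 ± 0.52), T-effector cells with IL6 (7.25 ± 0.26), T-effector cells with IL2 alone (6.97 ± 0.23), T-effector cells with TGFb (6.64 ± 0.28) and Treg cells with TGFb (6.58 ± 0.26), n = 3 each. All neighbours in this order overlapped, since array 1 of the T-effector cells with TGFb and IL6, at 7.73, fell below the highest Treg value with IL6.

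IL6 added to TGFb raised Cebpd by 2.13 ± 0.24 in Treg cells (adjusted p = 4.55e-06), the 1 of 4 members called there, where 5.58% of all genes were. In T-effector cells it raised it by 1.73 ± 0.24 (adjusted p = 5.64e-05), again the 1 of 4 members, where 7.43% of genes were. The slides that held both conditions gave 2.03, 1.96 and 2.15 in Treg cells and 1.77, 1.80 and 1.33 in T-effector cells on slides B, D and E. With slide as a block the changes were 2.05 ± 0.14 and 1.64 ± 0.14. On Agilent's processed signals they were 3.47 ± 0.33 in Treg and 3.05 ± 0.33 in T-effector cells. Those signals lack the offset but also differ in background correction and normalization. Which of these gave the larger change was not tested. Klrd1 rose in the same comparisons, by 1.79 ± 0.23 in Treg cells (adjusted p = 1.63e-05) and 1.85 ± 0.23 in T-effector cells (adjusted p = 8.64e-06), the 1 of 6 CD8 and NK markers called in each. The sum of that list was 3196 to 4409 in Treg cells with TGFb and 4193 to 5009 with TGFb and IL6, and 2815 to 3663 and 2918 to 3892 in T-effector cells.

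In Treg cells TGFb moved Cebpd in opposite directions without and with IL6. Added to IL2, it lowered Cebpd in Treg cells by 0.91 ± 0.26 (adjusted p = 0.0336), with -0.79 within slide D and -0.72 ± 0.17 with slide as a block. In T-effector cells that change was -0.30 ± 0.26 (adjusted p = 0.596). Added to IL2 and IL6, it raised Cebpd in Treg cells by 1.07 ± 0.24 (adjusted p = 0.00533), with 1.11 within slide E and 0.85 ± 0.15 with slide as a block. In T-effector cells it raised it by 1.12 ± 0.24 (adjusted p = 0.00371), with 0.58 within slide E and 0.89 ± 0.15 with slide as a block, and Cebpd was the 1 of 4 members called where 11.2% of all genes were. Without slide B, which held 2 of the 4 arrays with TGFb and IL6, these 2 increases were 0.86 (adjusted p = 0.0971) and 0.78 (adjusted p = 0.102), no longer called.

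The interaction of TGFb with IL6, a contrast added after the data were seen, measures how far the effect of IL6 with TGFb exceeds its effect without. For Cebpd in Treg cells it was 1.99 ± 0.36 (adjusted p = 0.00408), the 1 of 4 members called where 0.918% of all genes were. Leaving out slide B gave 1.92 ± 0.40 (adjusted p = 0.0554). In T-effector cells it was 1.42 ± 0.36 (adjusted p = 0.0652), not called, and 0 of 4 members were called against 0.993% of all genes. With slide as a block it was 1.56 ± 0.22 in Treg cells (adjusted p = 0.000412) and 0.99 ± 0.22 in T-effector cells (adjusted p = 0.0237). IL6 added to IL2 gave 0.14 ± 0.26 in Treg (95% interval -0.40 to 0.69) and 0.31 ± 0.26 in T-effector cells (-0.24 to 0.86). With slide as a block these changes were 0.48 ± 0.17 (adjusted p = 0.198) and 0.65 ± 0.17 (adjusted p = 0.0807), also not called. Slide A, the one slide with both of those conditions, gave 0.83 and 0.41.

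The Cebpd Treg to T-effector ratio was 0.52 ± 0.18 with IL2 alone (adjusted p = 0.0795), 0.36 ± 0.18 with IL6 (adjusted p = 0.26), 0.31 ± 0.15 with TGFb and IL6 (adjusted p = 0.278) and -0.09 ± 0.18 with TGFb (adjusted p = 0.844). Treg was the higher channel on 11 of 13 arrays. TGFb added to IL2 changed the ratio by -0.62 ± 0.25 (adjusted p = 0.168), not called, but by -0.63 ± 0.20 with slide as a block (adjusted p = 0.0459) and -1.04 without slide A (adjusted p = 0.0227), both called. Array 3 of IL2 alone gave the largest ratio of its condition, at 0.90, and array 1, on slide A, the smallest, at 0.08. Without slide A the ratio with IL2 alone was 0.90 ± 0.17 (adjusted p = 0.00914), which is called.

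Cebpg was detected in all 26 channels by all 3 of its probes and varied little. No comparison was called for it in 18, and 2 of its 18 unadjusted limma p-values were under 0.05. Its tested probe, 60 bases at chr7:31939516-31939575 (mm7, minus strand), was lower in Treg than in T-effector cells on 11 of 13 arrays. With IL2 alone its Treg signal was 8.31, 8.93 and 8.26 and its T-effector signal 8.67, 9.10 and 8.62. Treg was the lower channel on each of these arrays, although the groups overlapped. The log2 ratio was -0.34 ± 0.11 with IL2 alone (adjusted p = 0.0732), -0.27 ± 0.11 with IL6 (adjusted p = 0.183), -0.23 ± 0.11 with TGFb (adjusted p = 0.298) and -0.20 ± 0.10 with TGFb and IL6 (adjusted p = 0.273).

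The other Cebpg probes were lower in Treg on 10 of 13 and 9 of 13 arrays. With IL2 alone they gave -0.47 ± 0.14 (adjusted p = 0.0595) and -0.10 ± 0.11 (adjusted p = 0.605). Centring each array on its median in place of loess moved the median ratio of all genes to -0.29 with IL2 alone and -0.32 with IL6. On that scale the Cebpg ratio was -1.06 and -1.04 in these conditions, both called (adjusted p = 0.00199 and 0.00185), and the Cebpb ratio was 1.50 and 0.87, both still called (adjusted p = 0.00302 and 0.0369). The direction of both genes was the same on either scale. Median centring also called 2 changes of the Cebpg ratio, 1.00 for TGFb added to IL2 (adjusted p = 0.0166) and 0.84 for TGFb added to IL2 and IL6 (adjusted p = 0.0297), which were 0.11 and 0.07 after loess. Across the 8 condition differences, the Cebpg values lay between -0.26 and 0.25, and its group means ran from 8.50 to 9.02 with overlap between all neighbours.

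Cebpa was at the lower limit of the arrays. Its tested probe, 60 bases at chr7:32011212-32011271 (mm7, plus strand), was well above background in 10 of 13 Treg and 11 of 13 T-effector channels, and its other probe in 7 and 8 of 13. The group means of the tested probe lay between 6.28 and 6.72, and all neighbours overlapped. With IL2 alone its Treg signal was 6.30, 6.47 and 7.24 against 6.32, 6.34 and 6.45 in T-effector cells, so that array 3 alone set the mean. The ratio was 0.26 ± 0.13 with IL2 alone (adjusted p = 0.237), 0.22 ± 0.13 with IL6 (adjusted p = 0.356), -0.10 ± 0.13 with TGFb (adjusted p = 0.764) and -0.03 ± 0.11 with TGFb and IL6 (adjusted p = 0.915). None of its 18 unadjusted limma p-values was under 0.05. At such signals a difference was not readily detectable.

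Of 3 further genes of the family, Cebpz and Ddit3 were tested and Cebpe was not. Ddit3, also called CHOP, is a stress-induced C/EBP protein, and Cebpz is a CCAAT-binding protein of another fold. Neither was called in any of the 18 comparisons. For Ddit3, IL6 added to TGFb gave 0.49 ± 0.23 in Treg cells (adjusted p = 0.298) and 0.48 ± 0.23 in T-effector cells (adjusted p = 0.258).

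Genes of the route from IL6 to STAT3 were examined beside Cebpd. Of 12 genes of that list, 3 rose and 0 fell in Treg cells when IL6 was added to TGFb, and 6 rose and 0 fell in T-effector cells. Over all genes 2.86% rose and 2.72% fell in Treg cells, and 4.23% rose and 3.20% fell in T-effector cells. Their median was 0.21 and 0.51, against -0.03 and -0.03 for all genes. Socs3, the feedback inhibitor that STAT3 induces, rose by 2.75 ± 0.24 in Treg and 2.98 ± 0.24 in T-effector cells (adjusted p = 9.65e-08 and 2.63e-08). Il6st, which encodes the shared signalling subunit gp130, rose by 1.72 ± 0.11 and 1.11 ± 0.11. Bcl3, a cofactor of NF-kB, rose by 1.11 ± 0.28 and 1.37 ± 0.28. Stat3 and Socs1 rose in T-effector cells, by 0.59 ± 0.15 and 1.47 ± 0.42, while the receptor chain Il6ra gave -0.24 ± 0.23 and -0.05 ± 0.23, not called.

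Among 19 other zipper factors that can pair with C/EBP proteins or compete with them, 4 were higher and 0 lower in Treg cells with IL2 alone, where 7.40% of all genes were higher and 3.56% lower. In Treg cells 2 rose and 6 fell when TGFb was added to IL2, and 1 rose and 8 fell when it was added to IL2 and IL6. Over all genes 3.66% rose and 4.11% fell in the first of these comparisons, and 4.86% rose and 5.18% fell in the second. The medians of these 2 comparisons were -0.34 and -0.41, against -0.01 and -0.03 for all genes. Junb, an AP-1 subunit, was higher in Treg cells in the same 2 conditions as Cebpb. Its ratio was 0.99 ± 0.14 with IL2 alone and 1.09 ± 0.14 with IL6 but -0.48 ± 0.12 with TGFb and IL6. TGFb lowered it in Treg cells by 1.15 ± 0.21 without IL6 and by 1.26 ± 0.19 with it. Batf, which pairs with Jun proteins in T cells, fell in Treg cells by 1.85 ± 0.34 and 1.38 ± 0.31 in these comparisons. Nfil3, a repressor with a C/EBP-like zipper, fell by 1.68 ± 0.26 and 1.05 ± 0.24, and it fell in T-effector cells too, by 1.26 ± 0.26 and 1.17 ± 0.24. Jun itself rose in Treg cells, by 0.86 ± 0.11 and 1.16 ± 0.10. Atf5 was lower in Treg cells with TGFb and IL6, by 0.76 ± 0.16 (adjusted p = 0.018).

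Of 12 genes whose products modify C/EBP proteins or mark them for degradation, 3 rose and 1 fell in Treg cells when IL6 was added to TGFb, and 3 rose and 0 fell in T-effector cells, beside the shares of all genes given for the same comparisons above. The medians were 0.11 and 0.05. Trib2 and Trib3, pseudokinases of the Tribbles family, rose by 1.07 ± 0.21 and 1.12 ± 0.15 in Treg cells, and Fbxw7, a ubiquitin ligase subunit, by 1.06 ± 0.18, whereas Trib1 fell by 0.62 ± 0.16. Trib3 was also higher in Treg than in T-effector cells with TGFb and IL6, by 0.88 ± 0.12 (adjusted p = 0.00143). Rps6ka1, a kinase of the RSK family that phosphorylates C/EBPβ, was higher in Treg cells with IL2 alone by 0.50 ± 0.14, and Rps6ka3 of the same family was lower with IL6 by 0.41 ± 0.08.

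Genes known as C/EBP targets were compared between Treg and T-effector cells. Of 20 inflammatory genes listed, 13 were tested, and 1 was higher and 1 lower in Treg cells with IL2 alone, where 11.0% of all genes were called. Il10, an anti-inflammatory cytokine, was the higher one (1.06 ± 0.22, adjusted p = 0.0129), and Csf2, which encodes GM-CSF, the lower one (-0.78 ± 0.14, adjusted p = 0.00655). Il1rn, the IL1 receptor antagonist, was higher in Treg cells with TGFb by 0.64 ± 0.17 (adjusted p = 0.0452), and Tnf with TGFb and IL6 by 0.38 ± 0.07 (adjusted p = 0.0119). Of 13 granulocyte targets, 7 were tested, and with IL2 alone 1 was higher, Csf2ra, the GM-CSF receptor chain (0.95 ± 0.16, adjusted p = 0.00459). Csf2ra was also higher with IL6 (0.86 ± 0.16, adjusted p = 0.0115), and TGFb added to IL2 lowered it in Treg cells by 0.95 ± 0.21 (adjusted p = 0.00575). Gfi1, a repressor used in granulocyte development, was lower in Treg cells with TGFb (-1.09 ± 0.21, adjusted p = 0.0101) and with TGFb and IL6 (-0.77 ± 0.18, adjusted p = 0.0281). Of 13 genes of the amino acid response that ATF4 and C/EBP dimers control, 1 was higher with IL2 alone, Ddit4, an inhibitor of mTOR signalling (0.86 ± 0.19, adjusted p = 0.0172).

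The genes most like each member were ranked by Pearson's r over the 26 channels among 15935 genes. These points share arrays, dyes and conditions, so r is a description only. Il10 was the gene most like Cebpd (r = 0.95). It rose by 2.73 ± 0.29 in Treg and 2.50 ± 0.29 in T-effector cells when IL6 was added to TGFb. The next were AK040026 (0.94), Susd3 (0.94), AK037524 (0.93) and Agpat4 (0.93). For Cebpb they were Aldh5a1 (0.94), Sh3bp1 (0.93), Gtf3c1 (0.92), Clasrp (0.92) and Nktr (0.90). For Cebpg they were Cep57 (0.88), Trmt61b, Uxs1, Cyb5b and NAP056806-1, and for the dim Cebpa Mdfi (0.94), AI844789, Pbld2, AI838745 and Peg3.

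The authors' deposited table holds log2 values by condition, which correlated with Treg over T-effector on the arrays at Pearson's r from 0.92 to 0.96 across 35347 to 39494 probes, which are not independent replicates. How its replicates were combined is not given in the sources used here. For the tested Cebpb probe the authors' deposited table gives 2.33 with IL2 alone and 1.71 with IL6, against 0.70 with TGFb and 0.49 with TGFb and IL6. For Cebpd the authors' deposited table gives 0.67, 0.47, 0.02 and 0.34 in the same order. For the second Cebpb probe the authors' deposited table gives 1.06, 0.61, 0.85 and 0.79, so that its value with IL6 is below both values with TGFb. For the tested Cebpa probe the authors' deposited table gives -0.11 with IL2 alone, opposite in sign to the fitted 0.26, and its Cebpd value of 0.02 with TGFb is opposite in sign to the fitted -0.09.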

How the data were processed

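The members and the gene lists were chosen with earlier results of these data known. Per the file headers, Agilent Feature Extraction 9.5.1.1 produced one output per array from a design on mm7. The deposited spot values used were the mean and median-background intensity of each dye, the processed intensity and the log10 ratio of red over green. The authors' deposited value table holds log2 values. The dye of each cell type came from the labels. With limma 3.58.1 (R 4.3.3), background was corrected by normexp (offset 50, fitted without spots flagged for local background), ratios by loess, and channels by Aquantile. The filter kept the 28969 probes called well above background in 3 or more of the 26 channels, with the brightest per gene tested (19932 genes). The ratio fit had 1 coefficient per condition and a dye term (8 residual degrees of freedom). The channel fit used an intraspot correlation of 0.45. Lower signals are compressed by the offset. Where 135 genes lacked an array, it was dropped for that gene. The fits were run on simulated data with noise independent between arrays. In the ratio fit with slide as a block, arrays of 1 slide had a correlation of 0.58. The simulation therefore does not show the rate of false calls in these data.

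Genes named were the 4 members, the other C/EBP family genes, up to 4 called genes of each list, and the 5 genes most correlated with each member; further list genes were chosen after their values were seen. Listed genes that are counted but not named have no values reported here. Array numbers 1 to 3 of both TGFb conditions coincide with slides E, B and D and with the same dye orientation. Same-numbered arrays deviated together (r of the ratios 0.76, 0.73 and 0.53). Whether they share samples, or only slide and dye, cannot be told apart. An alternative fit, the replicate block, treated them as pairs. With that replicate block the Cebpb ratio with TGFb was 0.94 (adjusted p = 0.04), its difference between TGFb with IL6 and IL6 was -1.50 (adjusted p = 0.0308), and the Cebpd interaction in T-effector cells 1.45 (adjusted p = 0.0406), all called. Alternatives covered background, normalization, filters, dye, slides, blocks, probes and each array left out.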

Additional observations from a re-analysis of the deposited data

Results flagged for a closer look

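The Cebpb Treg to T-effector ratio differed between conditions: TGFb added to IL2 changed it by -1.58 (adjusted p = 0.0458, limma), tested as a contrast of the ratios. The TGFb by IL6 interaction of Cebpd in Treg cells was 1.99 (adjusted p = 0.00408, limma). Among the 24 sets of 4 arrays examined, all of TGFb with IL6, 2 held an array far from the others, and chance gives about 1 in 20. Array 4 had a log2 ratio of 0.37 for the tested Cebpa probe, against -0.21 to -0.12 on the other 3 arrays. Array 1 had 0.50 for the second Cebpb probe, against 0.16 to 0.20 on the others.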

How the results depend on the processing

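Over 72 results, 1888 alternative values were computed. Of these, 1818 stayed on their side of the threshold, 35 lost a call and 35 gained one. All 35 losses fell on the 11 called results, which hold a minority of the 1888 values. The pooled count therefore does not give the stability of the calls. No called value changed sign, and 108 values changed sign without a call in either fit. The Cebpb ratio with IL2 alone and the rise of Cebpd in both cell types when IL6 was added to TGFb were called under every alternative run for them. For all other changes below the cause was not tested, and adjusted p-values are limma's.

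Slide as a block gave a Cebpb ratio of 0.81 with TGFb, a difference of -1.69 in that ratio for TGFb added to IL6, a Cebpd ratio of 0.42 with IL6 and a change of -0.63 in the Cebpd ratio for TGFb added to IL2, all called. That Cebpd change was also called on processed signals (-1.04), after removal of the spatial trend (-0.61), without slide A (-1.04) and without array 1 of IL2 alone (-1.03). With the replicate block the Cebpb values were 0.94 and -1.50, both called, and beside the Cebpd interaction in T-effector cells it changed no other call. Averaging the arrays of 1 slide left the Cebpb ratio with IL6 at 1.71 (adjusted p = 0.0649) and its change with TGFb added to IL2 at -1.55 (adjusted p = 0.0664). Without slide B that change was -1.58 (adjusted p = 0.152), and for Cebpd the effects of TGFb added to IL6, 0.86 in Treg and 0.78 in T-effector cells, and the Treg interaction, 1.92, were no longer called. Without slide A, chosen after seeing the data, the Cebpb ratio was called with TGFb (0.77) and with TGFb and IL6 (0.46), as were its change of -1.78 for TGFb added to IL6 and the Cebpd ratio of 0.90 with IL2 alone. Leaving slide B out of the fits within a cell type, and the interaction itself, were also chosen after seeing the data.

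The change of the Cebpb ratio with TGFb added to IL2 was not called with no filter on dim probes (-1.58, adjusted p = 0.0576), when all spots entered the background model (-1.43, adjusted p = 0.239) or with median centring (-0.49, adjusted p = 0.377). That model also ended the Cebpd call in Treg cells for that addition (-0.66, adjusted p = 0.102). On the second Cebpb probe the ratio with IL6 was 0.39, its change with TGFb added to IL2 -0.33, and the changes within Treg cells -0.38 and -0.056, none called. The Cebpb ratio change for TGFb added to IL6 was called with a stricter filter (-1.42), Agilent's processed signals (-1.50) and removal of the spatial trend (-1.43). The Cebpd ratio was called with IL2 alone on processed signals (0.91) and, after removal of the spatial trend, with IL2 alone (0.52) and IL6 (0.38). The Cebpg ratio with IL2 alone was called on processed signals (-0.48), with no background subtraction (-0.35), after removal of the spatial trend (-0.36) and with median centring (-1.06), which also called it with IL6 (-1.04) and called its changes for TGFb added to IL2 (1.00) and to IL6 (0.84).

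With 1 array left out at a time, the Cebpb ratio with IL6 ran from 1.63 to 2.24 and lost its call without array 3 of IL6 (1.70). Its change with TGFb added to IL2 ran from -2.17 to -1.15 and was called only without array 1 of IL2 alone or array 1 or 2 of IL6. Its change with TGFb added to IL6 ran from -1.78 to -1.18 and gained a call without array 1 of IL2 alone or array 2 of IL6. In Treg cells, the Cebpb effect of TGFb added to IL2 ran from -1.79 to -1.09 and lost its call without array 3 of either condition. The effect of TGFb added to IL6 ran from -1.41 to -0.99 and lost it without array 1 or 3 of either condition. For Cebpd in Treg cells, TGFb added to IL2 gave -1.19 to -0.61 and lost its call without array 3 of IL2 alone or array 1 or 3 of TGFb, and TGFb added to IL6 gave 0.93 to 1.22 and lost it without array 3 of IL6. The Cebpd ratio with IL2 alone, 0.29 to 0.90, gained a call without array 1 of IL2 alone, and the Cebpg ratio, -0.41 to -0.27, without array 2 of IL6. Signal over background limits Cebpa, whose probes were not well above background in every channel, and the lower Cebpd values.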
